A study of Mus musculus with 7 samples.

Results

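The clustered protocadherins are the 57 protein-coding genes whose RefSeq symbol begins with Pcdha, Pcdhb or Pcdhg, out of 21130 protein-coding genes that could be placed against the domain list. All 57 lie side by side on mouse chromosome 18 (mm10), as 14 alpha, 22 beta and 21 gamma genes. Their positions were set against a merged list of 1437 LADs (lamin-associated domains), stretches of chromatin in contact with the nuclear lamina, the protein meshwork under the nuclear envelope. The list is taken to come from the CUT&RUN libraries for Lamin B1, a filament protein of that meshwork, because its name speaks of LADs and of merging. The labels do not tie it to samples. In CUT&RUN an antibody directs a nuclease to its target in intact cells or nuclei, and the released DNA is sequenced. The cells were wild type by the name of the list only. They belong to the lines called iMEF in the labels, mouse embryonic fibroblasts derived independently from a single colony and grown without any listed treatment. The series held 7 libraries, of which 2 targeted Lamin B1, 2 targeted the repressive mark H3K9me2 (1 per antibody), 1 targeted H3K14ac, and 2 used IgG as a control. Values of the single libraries were not analysed here. Each gene therefore has 1 placement, inside or outside a domain, without a replicate error or a known read depth, and no statistical test was made. The list holds no expression data, so neither the cell type nor the activity of any gene was checked.

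Clustered protocadherins are cell adhesion proteins of the cadherin superfamily that neurons use to tell their own branches from those of other neurons. In the alpha and gamma clusters, each gene has its own large first exon, which encodes the extracellular domains, and splices to a set of shared constant exons at the far end of the cluster. The beta genes have no shared constant exons. A neuron switches on a few of the alternate promoters, through loops that CTCF and cohesin form between promoter and enhancer, and the others stay silent and methylated. The C-type genes at the far end of the alpha and gamma clusters are regulated differently, and several of them are expressed without this random choice.

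A single border divided the family. All 14 alpha genes and all 22 beta genes had their 5′ end inside 1 LAD, and none of the 21 gamma genes did. This amounts to 36 of 57 genes, or 63.2%, where the 5′ end lay in a LAD for 24.7% of protein-coding genes with a known strand. The count was 36 again with genes placed by 3′ end (25% of genes genome-wide), by midpoint (24.6%), by at least 50% of the gene covered (24.5%), by the whole gene in 1 LAD (22.5%) or by any overlap (26%). The share of the family cannot be read as 57 separate measurements, because it follows from the position of 1 domain. The LAD is chr18:36853901-37603897 and measured 750.0 kb. It ranked the 541st in length of the 1437 domains, whose median was 445.0 kb, and the 17th of the 47 on chromosome 18. From the first to the last member the locus spanned 911.6 kb, of which 73.9% was covered, against 45.7% for the chromosome between its first and last domain.

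**Figure D1:**
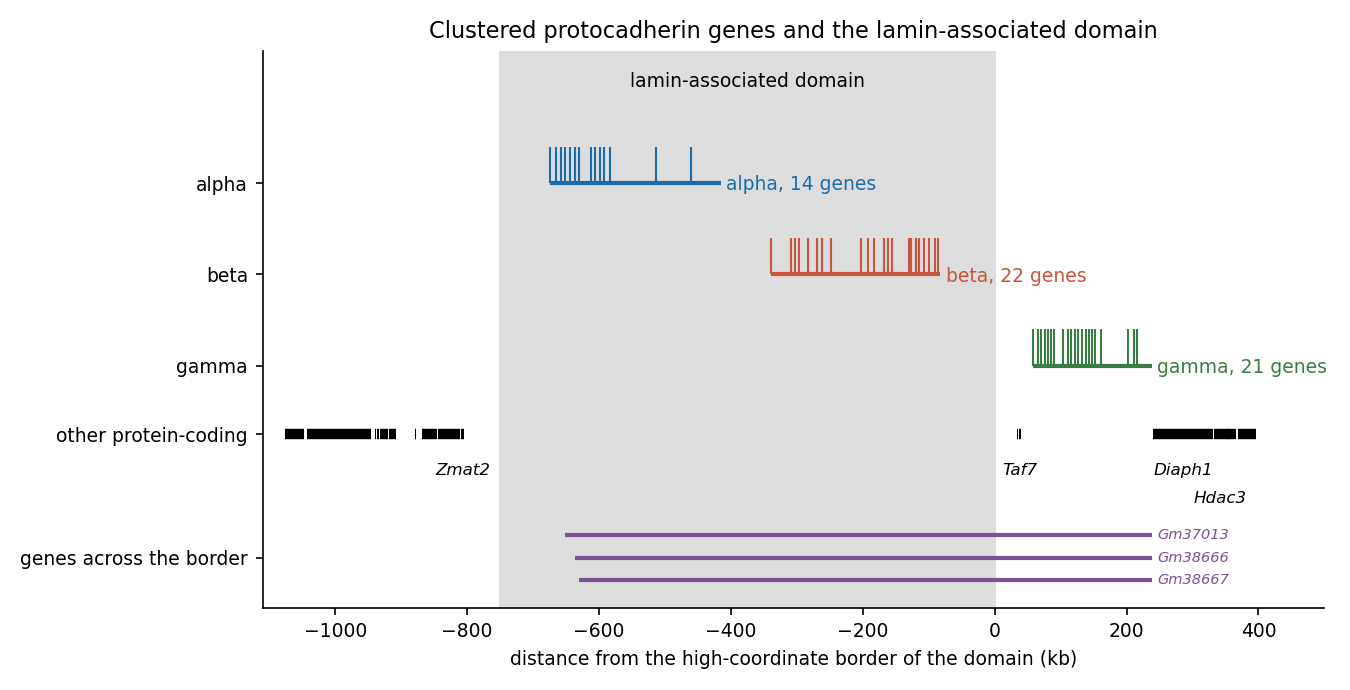
Positions of the alpha, beta and gamma genes (horizontal lines, cluster extents; vertical ticks, 5′ ends), of other protein-coding genes (black) and of 3 annotated genes that cross the border (purple), in kb from the high-coordinate border of the LAD (grey). The 36 alpha and beta genes lie in the grey domain and the 21 gamma genes beyond its high-coordinate border.

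The alpha cluster was covered completely. It extends over 258.6 kb (chr18:36930285-37188897), and 100% of these bases lay in the LAD, including the shared exons at its high-coordinate end. The first gene, Pcdha1 (chr18:36930285-37187657), began 76.4 kb inside the low-coordinate border. Pcdha2 began 85.3 kb, Pcdha3 92.2 kb and Pcdha4 98.8 kb inside. These were the 4 alpha genes within 100 kb of a border. From Pcdha5 (106.4 kb) to Pcdha12 (166.3 kb) the 5′ ends followed at a depth that grew with each gene. The spacing of neighbouring alpha 5′ ends had a median of 7.44 kb and ranged from 5.41 to 69.9 kb.

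The C-type genes of this cluster lay deeper than the other alpha genes. Pcdhac1 (chr18:37090136-37187657) began 236.2 kb from the nearest border, after the longest interval in the cluster, 69.9 kb from Pcdha12. Pcdhac2 (chr18:37143678-37187663) began 289.8 kb from it. This order follows from their place at the end of the row, away from the low-coordinate border.

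The beta cluster filled the other side of the same domain. It extends over 256.4 kb (chr18:37264998-37521419), also with 100% of its bases in the LAD. The beta genes are short, from 2.34 to 5.27 kb, and each was covered from end to end. Pcdhb1 (chr18:37264998-37267454) was the deepest of all members, with its 5′ end 338.9 kb from a border in a domain whose centre is 375.0 kb from both. From there the depth fell along the row, to 248.6 kb at Pcdhb8. After an interval of 45.6 kb, the longest between beta genes, Pcdhb9 lay at 203.0 kb. Pcdhb20 (99.6 kb), Pcdhb21 (90.2 kb) and Pcdhb22 (85.5 kb) were the 3 beta genes within 100 kb of the border.

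Alpha and beta took opposite sides of the domain. Its centre fell in the 76.1 kb between the clusters, 40.0 kb beyond the last alpha exon and 36.1 kb before Pcdhb1. All 14 alpha genes were nearer to the low-coordinate border and all 22 beta genes nearer to the high-coordinate one. The stretch of LAD without members measured 76.4 kb before Pcdha1 and 82.5 kb after the end of Pcdhb22 (chr18:37518353-37521419). Members and the intervals between them thus took up 78.8% of the domain.

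**Figure D2:**
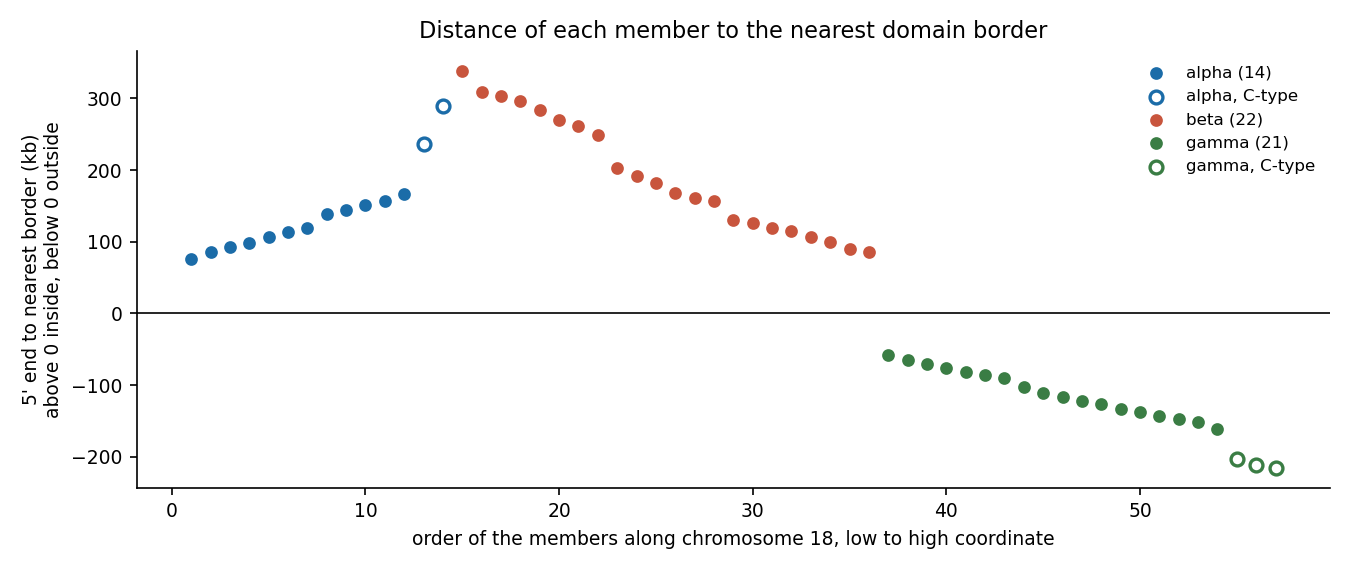
Distance from the 5′ end of each of the 57 members to the nearest LAD border in kb (vertical axis, above 0 inside and below 0 outside) in their order along the chromosome (horizontal axis), with open circles for the C-type genes. The depth climbs through alpha to 338.9 kb at Pcdhb1, falls through beta to 85.5 kb at Pcdhb22, and changes side before Pcdhga1.

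The gamma cluster lay outside, with 0% of its 180.1 kb (chr18:37661775-37841873) in a LAD. Pcdhga1 (chr18:37661775-37841870) was the member nearest to a border, beginning 57.9 kb beyond it. It was followed by Pcdhga2 at 65.0 kb, Pcdhga3 at 70.4 kb, Pcdhgb1 at 76.4 kb, Pcdhga4 at 81.3 kb, Pcdhgb2 at 86.0 kb and Pcdhga5 at 90.5 kb. The other 14 began more than 100 kb away. The 12 Pcdhga genes lay 57.9 to 161.7 kb from the border. The 6 Pcdhgb genes stand among them, at 76.4 to 147.7 kb. With a median spacing of 5.37 kb, gamma was also the most tightly packed of the clusters, at 13.3 genes per 100 kb between its first and last 5′ end, against 8.68 for beta and 6.56 for alpha.

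The C-type genes of gamma were the farthest from the domain. Pcdhgc3 (chr18:37806410-37841873) began 202.5 kb beyond the border, Pcdhgc4 (chr18:37815079-37841873) 211.2 kb and Pcdhgc5 (chr18:37819546-37841873) 215.6 kb. Pcdhac1 and Pcdhac2 lay 236.2 and 289.8 kb inside. The 5 C-type genes therefore fell on both sides, 2 inside and 3 outside, and each shared the placement of the rest of its cluster.

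Among the 56 neighbouring pairs of members, 1 pair (1.79%) changed from inside to outside, the pair of Pcdhb22 and Pcdhga1. Between all neighbouring protein-coding genes placed by midpoint, 7.53% of 21109 pairs changed. Pairs of members skip other genes between them, and the members are tightly packed around 1 domain, so the shares are not directly comparable. The distance to the nearest border was summarised on each side. Inside, the median for members was 153.8 kb, with 321.8 kb over all 4210 genes placed inside by 5′ end. Outside, the medians were 121.8 kb and 742.9 kb, the latter over 12832 genes. A border lay within 100 kb of the 5′ end for 14 of 57 members (15.9% of genes genome-wide) and within 200 kb for 43 (26.1% genome-wide). These distances all refer to the same 2 borders.

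The border that separates beta from gamma did not cut through a member. It fell in the 140.4 kb between the end of Pcdhb22 and the start of Pcdhga1. On the gamma side, this stretch holds a pair of unrelated protein-coding genes. Slc25a2 (chr18:37637378-37638723), which encodes a mitochondrial ornithine carrier, began 33.5 kb beyond the border. Taf7 (chr18:37640491-37644204), which encodes a subunit of the general transcription factor TFIID, began 36.6 kb beyond it. Both lay outside the LAD, and the distances given are to the end that faces it, whatever the strand. No protein-coding gene lies wholly between the alpha and beta clusters.

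The border was spanned by 3 annotated transcription units that are not members by symbol. Gm37013, Gm38666 and Gm38667 begin among the alpha genes and end with the gamma cluster, and their RefSeq synonyms are Pcdha4-g, Pcdha6-g and Pcdha7-g. They measured 889.2, 874.2 and 868.1 kb. Of these lengths 73.2%, 72.8% and 72.6% lay in the LAD, with 1 border in each. For comparison, 3.47% of all protein-coding genes and 35.1% of the 225 genes of at least 500 kb contained a border. In these units the alpha end was inside and the gamma end outside the domain.

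The 5 nearest protein-coding genes on each side of the locus lay outside. On the low-coordinate side the nearest of them was Zmat2 (chr18:36793923-36799660), a zinc finger gene that ended 54.2 kb before the LAD. Hars2 and Hars, which encode the mitochondrial and cytosolic histidyl-tRNA synthetases, ended 61.3 and 70.7 kb before it. Dnd1, a germ cell RNA-binding protein gene, and Wdr55 ended 87.7 and 90.2 kb before it. On the high-coordinate side, Diaph1 (chr18:37843601-37935622), which encodes a formin that nucleates actin filaments, began 239.7 kb beyond the border. Hdac3, the gene of a histone deacetylase, began 333.1 kb beyond it, and Rell2, Fchsd1 and Arap3 between 351.2 and 368.7 kb. Neither border lay in any of these 10 genes. Their distances are to the end that faces the LAD, whatever the strand.

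The LAD stood alone in a long stretch without domains. The gap before it measured 5.43 Mb (chr18:31423918-36853900) and the gap after it 2.76 Mb (chr18:37603898-40361388), where the median of all 1416 gaps was 240.0 kb. They ranked the second and the sixth of the 46 gaps on chromosome 18. The first gap held 81 protein-coding genes, or 14.9 per Mb. The second held 42, or 15.2 per Mb, of which 21 were the gamma genes.

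**Figure D3:**
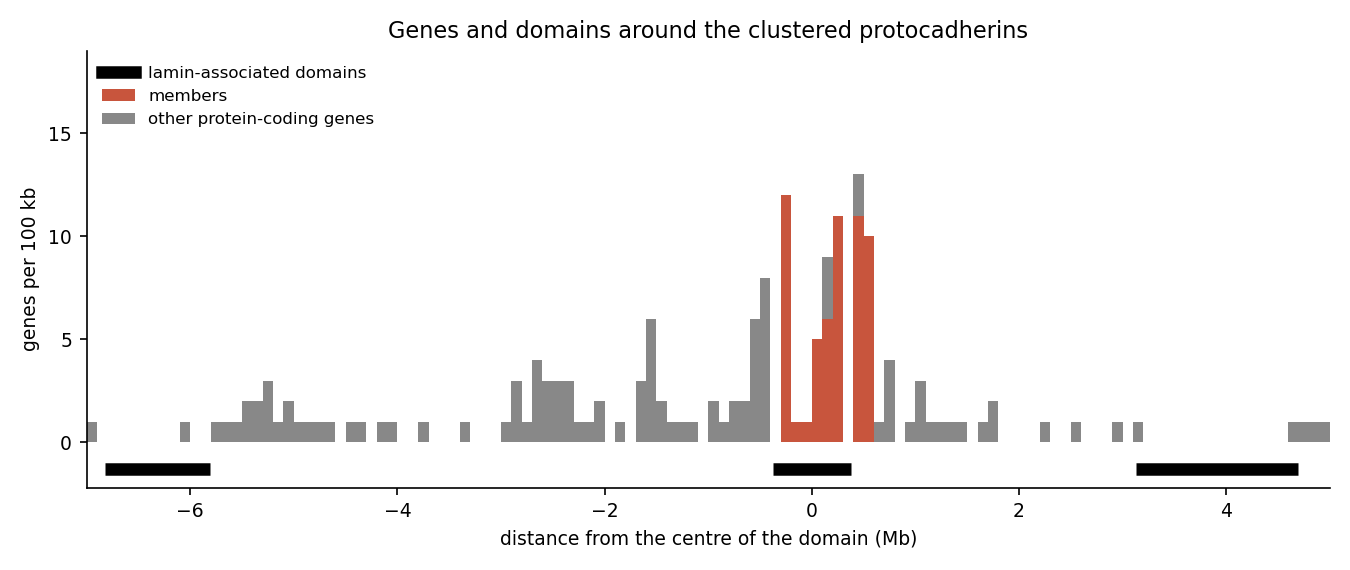
Number of members (red, by 5′ end) and of other protein-coding genes (grey, by midpoint) per 100 kb, against the distance in Mb from the centre of the LAD, with LADs as black bars. The red columns on the central bar are alpha and beta, those to its right are gamma, and gaps of 5.43 and 2.76 Mb separate the bar from the next ones.

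The domain of alpha and beta held the midpoints of 39 protein-coding genes, the 36 alpha and beta genes and the 3 units that run on to gamma, which is 52.0 per Mb. The median over the 675 LADs of at least 500 kb was 1.92 per Mb, and 1 other LAD of that size reached 52.0, an olfactory receptor domain on chromosome 7 with 52.9 per Mb. Gene counts here depend on the annotation, because the alpha genes overlap and share exons. With the members alone the density was 48.0 per Mb, which again 1 other domain reached. With the alpha cluster counted as 1 gene it was 30.7 per Mb, which 6 others reached. By number of genes, 20 of the 1437 LADs held 39 or more. In 11 of these 20, over 50% of the genes were olfactory or vomeronasal receptors, and in the protocadherin domain none was.

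The isolation of the domain was set against the whole list. Of the 1395 LADs with a gap on both sides, 9 had both gaps at least as long as 2757 kb, the shorter gap of the protocadherin domain, where the median shorter gap was 132.5 kb. The 9 domains include it, and it held the most genes among them. The next had 13, and the median of the 9 was 1. Since that limit was set by the domain itself, rounder limits are given too. Both gaps reached 2 Mb for 24 domains, and the most genes in any of the other 23 was 19. Both reached 1 Mb for 82 domains, among which 1 other held at least 39, with 104 genes.

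**Figure D4:**
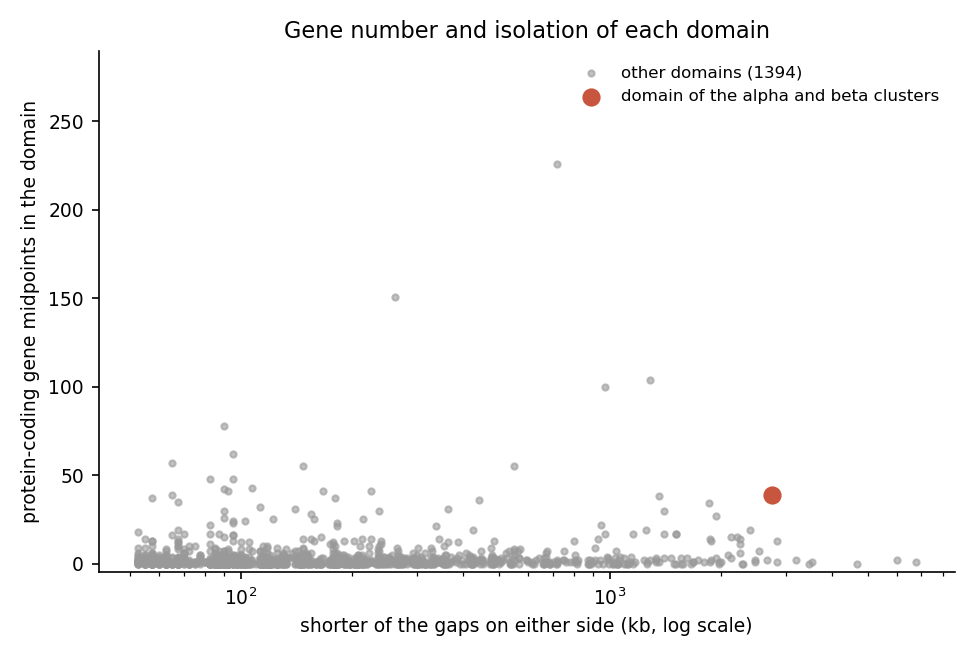
Number of protein-coding gene midpoints in each of 1395 LADs (vertical axis) against the shorter of the gaps on its sides (horizontal axis, kb, log scale). The domain of the alpha and beta clusters (red) holds 39 genes with a shorter gap of 2757 kb, to the right of the other domains with as many genes.

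Protocadherins outside the clusters were placed for comparison, by midpoint. Of the 12 non-clustered protocadherin genes, 8 (66.7%) lay in a LAD, where 24.6% of all protein-coding genes did. By 5′ end it was 5 of the 9 with a known strand (24.7% genome-wide). The midpoints of Pcdh8 and Pcdh9 lay only 5.47 and 7.24 kb inside a border, and no border shift was run for these genes. By midpoint, 36 of the 57 clustered genes lay inside, as did 16.8% of the 452 other genes of chromosome 18. No test of the difference between both kinds of protocadherin was made. None of the clustered genes and 3 of the 12 contained a border, where 3.47% of all protein-coding genes and 35.1% of those of at least 500 kb did. Pcdh9, at 879.1 kb, had 4 borders and 17.3% of its length covered, and Pcdh7 (417.1 kb) had 65.6% and Pcdh11x (620.4 kb) 92.1% covered, with 1 border each. Pcdh15, the tip-link protein gene of hair cells, Pcdh17, Pcdh20, Pcdh8 and Pcdh10 were covered completely. Pcdh1, Pcdh12, Pcdh18 and Pcdh19 lay outside.

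Pcdh1 and Pcdh12 share the gap with gamma. Pcdh1 (chr18:38185914-38212048) had its midpoint 595.1 kb and Pcdh12 (chr18:38267092-38284401) 671.8 kb from the nearest border, which is the one beside the beta cluster. Among 23 classical and other cadherins, defined by the symbol Cdh and a digit, 11 (47.8%) lay in a LAD, at a median depth of 1398 kb, and 1 contained a border, where the shares of all protein-coding genes were 24.6% and 3.47%. By 5′ end it was 8 of the 13 with a known strand (24.7% genome-wide).

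Genes that act on the clusters were placed in the same way. In a list of 23 genes for chromatin architecture and silencing, 1 (4.35%) had its midpoint in a LAD, where 24.6% of all protein-coding genes did. By 5′ end it was 1 of the 20 with a known strand (24.7% genome-wide). The gene inside was Lrif1, which encodes a partner of SMCHD1 and lay 472.5 kb deep. Ctcf, the insulator protein gene, lay 641.8 kb outside, and the cohesin genes Rad21, Smc1a, Smc3, Stag1 and Stag2 lay between 359.4 and 1972 kb outside. Smchd1, whose product keeps the clusters silent, lay 488.9 kb outside. Dnmt3b, the DNA methyltransferase that methylates the alternate promoters, lay 2192 kb outside, and Setdb1, an H3K9 methyltransferase gene, 1027 kb outside.

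Of 22 symbols listed for adhesion and signalling partners, 21 were found as gene symbols. Of these, 2 (9.52%) had their midpoint in a LAD, against 24.6% of all protein-coding genes. By 5′ end it was 3 of the 10 with a known strand, against 24.7%. The pair inside by midpoint was Nlgn1, a postsynaptic adhesion gene, at 686.3 kb depth, and Robo1, an axon guidance receptor gene, at 3794 kb. Both are long, at 911.1 and 1020 kb. The kinase genes Ptk2 and Ptk2b, whose products bind protocadherin tails, lay 818.5 and 1996 kb outside. Cyfip2 of the WAVE complex contained a border. Its 5′ end lay inside a LAD and its midpoint outside, and 4.06% of its length was covered.

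**Figure D5:**
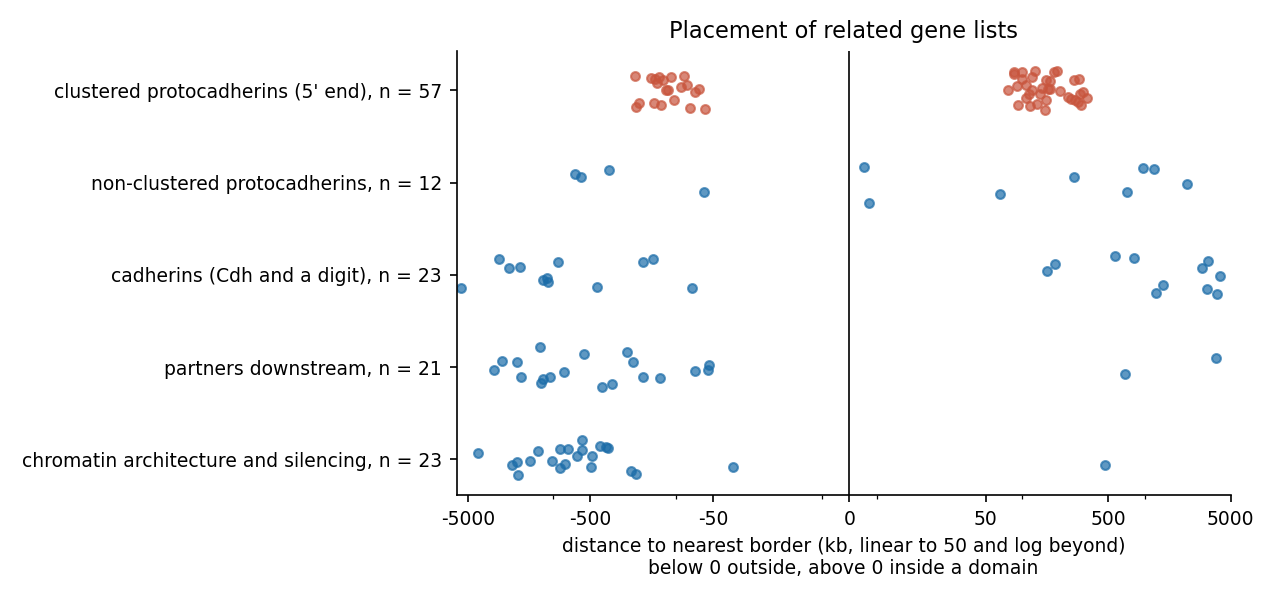
Distance to the nearest LAD border in kb (horizontal axis, linear to 50 and logarithmic beyond, below 0 outside and above 0 inside) for the clustered protocadherins by 5′ end and for the other lists by midpoint, 1 point per gene with random vertical spread. The clustered genes form 2 groups within 339 kb of a border, 36 inside and 21 outside, while 22 of the 23 architecture and silencing genes lie below 0.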

How the data were processed

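The authors deposited 1 BED list of LADs, giving the base positions where each domain starts and ends. The deposited score column held 0 in all 1437 lines, so no domain has a height or a p-value. Wild type, merged and mm10 stand in the name of the list, and that it pools the Lamin B1 libraries is inferred from that name. Bowtie2 and mm10 are named in the submitters' processing notes. The domain caller, its threshold and the use of IgG or spike-in are not given in the sources used here. Every length (100%) was a multiple of 2.5 kb to within 125 bp, so borders lie on a grid of about 2.5 kb. How precisely the reads locate them is unknown.

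Genes came from the RefSeq table of GRCm38.p6, the build of mm10, keeping genes with their midpoint between the first and the last LAD of a chromosome. Members were placed by 5′ end, the low-coordinate end. The table has no strand: the alpha genes share their high-coordinate ends within 1240 bp and the gamma genes within 10 bp. The beta orientation is background knowledge that changes no count of members inside the LAD. It does bear on the count of members within 200 kb of a border, through Pcdhb9. Strand for 17492 other genes came from the RefSeq promoter table. Distances and overlaps were computed with Python 3.11.15, pandas 2.3.3 and numpy 2.4.6, and tested on simulated data. The members, the lists and the rule for the genes named were chosen with earlier results of these data known. That rule took the ends of each cluster, genes at a border, C-type genes, the 5 nearest genes on each side and 2 fixed lists. The cadherin symbol rule, the shifts of 50 and 100 kb, the gene densities and the limits on gap length were chosen after seeing the data.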

Additional observations from a re-analysis of the deposited data

How the results depend on the processing

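The 7 counts of members inside and covered shares were recomputed under 12 other settings where they apply, which placed genes by midpoint, 3′ end or overlap, required LADs of at least 100 or 500 kb, joined gaps of at most 100 or 250 kb, cut a cluster at its last 5′ end, or moved both borders of each LAD by 10 kb. All 65 values so obtained were identical to those reported. Of the 28 values from 4 border shifts added after seeing the data, 20 were identical, including all with shifts of 50 kb. This follows from the distances, since no member begins within 57.9 kb of a border and no gap beside the domain is under 2757 kb. Shifts of 100 kb, 40 times the grid of the list, changed values. With each LAD widened by 100 kb, 7 gamma genes lay inside and 23.4% of that cluster was covered. With each LAD narrowed by 100 kb, 90.9% of the alpha and 93.2% of the beta cluster remained covered, and 10 alpha and 19 beta genes lay inside. No paired analysis was possible because each domain has 1 position in a list that its name calls merged, and for that reason no library could be left out. The read depth behind the borders is unknown.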

Other observations

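The locus also holds annotated genes that are no members. Between Pcdha1 and the end of gamma, 14 such genes had their midpoint, and 8 of them lay in the LAD. Of the 7 pseudogenes among them, 5 lay in the LAD: Gm36858, Gm18150 and Gm19035 among the alpha genes, and Gm18529 and Gm20162 among the beta genes. Gm8242 and Gm24401 lay outside, 48.5 and 102.1 kb beyond the border. The shares of all annotated genes and of all pseudogenes in LADs were not computed, so these counts have no background beside them. Pcdhgb8 (chr18:37761801-37840489), a gamma gene that RefSeq classes as a transcribed pseudogene, began 157.9 kb beyond the border, beside its protein-coding neighbours. Gm6756, a transcribed pseudogene (chr18:36920305-36922207), lay before Pcdha1, 66.4 kb inside the low-coordinate border, and was the first annotated gene of the domain. The small vault RNA gene Vaultrc5 ended 51.8 kb before that border. The 118.2 kb between Vaultrc5 and Gm6756 held no annotated gene, and neither did the 116.0 kb from Pcdhb22 to Slc25a2, so both borders fell in intervals free of annotated genes other than the 3 units that run from alpha to gamma.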
